A study of Mus musculus with 25 samples.

Results

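Lumbar dorsal root ganglia of sham-operated mice were compared with those of untreated mice 4 weeks after surgery, across all genes that the array names. The comparison rested on 6 of the 25 arrays of the study, 3 from sham mice and 3 from naive mice, and was chosen by the sample titles alone. All animals were male C57BL/6 mice and the tissue was dorsal root ganglion of segments L3 to L5, whose neurons supply the hind limb. Sham mice had a control operation on the right knee when 10 weeks old, and naive mice had no operation and were 14 weeks old when ganglia were taken. DMM mice, used below for values only, had the medial meniscus of that knee destabilized on the same schedule, a surgical model of osteoarthritis. Sham and naive mice at 16 weeks (3 arrays each, naive mice aged 26 weeks) gave a second, separate pair of groups. Naive mice of the 8-week time (3 arrays, aged 18 weeks) are used below for values only. No genotype or allele beyond the strain is named, and the labels do not describe the sham operation, give the side of the ganglia or say how many animals each array holds. The p-values therefore measure the spread between these samples, which may be technical.

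A sensory ganglion holds the cell bodies of sensory neurons wrapped by satellite glia, myelinating and non-myelinating Schwann cells on the axons, a capillary bed, a collagen-rich sheath and resident macrophages. Ganglion macrophages sit close to the neuron bodies, take up debris and make complement C1q, and their number and state are known to shift after nerve or joint injury. A sham operation commonly stands as the control for incision and handling, and its comparison with untreated animals asks how the ganglion differs after surgery that leaves the meniscus in place.

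The 20260 genes whose mean log2 intensity over all arrays exceeded 4.52 were tested. This limit lies below the negative control probe sets, whose array medians were 5.06 to 5.21 on the 6 arrays, so some genes that were tested may be no brighter than a negative control. The tissue carried the markers of its label, with a mean log2 intensity over 19 sensory neuron genes of 14.70 to 14.79 on the naive and 14.74 to 14.81 on the sham arrays. Arrays of a group correlated at 0.9971 to 0.9980 (naive) and 0.9974 to 0.9976 (sham) across genes.

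Of the 20260 genes, 67 passed an adjusted p of 0.05 in limma, a linear model that borrows the estimate of spread across genes. That is 0.331% of the genes tested. They were 57 genes lower in sham ganglia (0.281%) and 10 higher (0.0494%). Below, fell and rose mean lower and higher in sham than in naive ganglia at 4 weeks, not a change over time. The lower genes held 4 macrophage genes, Cd68, Csf1r, Mrc1 and C1qc, the capillary gene Gpihbp1 and 42 pseudogenes. The higher genes included Mycbp2, Vps13c and Fat3. All 67 had 3 sham arrays entirely on one side of the 3 naive arrays. Over all genes tested 16.7% had every sham array below every naive array and 7.21% had every sham array above. At an unadjusted p of 0.05, 2276 genes were lower (11.2%) and 953 higher (4.70%), and the median over all genes was -0.05 on the log2 scale. As deposited 12944 of all genes tested (63.9%) had a lower mean in sham ganglia, and 48.8% after quantile normalization, so the counts of lower list members below stand against the first of these shares.

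The number of calls rested on every array. Leaving out naive 1 or naive 3 left 0 calls, naive 2 left 1 (Gm12599), sham 1 left 11, sham 2 left 0 and sham 3 left 2, while 2403 to 2978 genes had an unadjusted p under 0.05 in these 6 fits. In limma fits of the 6 arrays alone 0 genes passed, with 3478 at an unadjusted p under 0.05. The split between directions rested on the scale. After quantile normalization 64 genes were higher and 20 lower, and after cyclic loess 75 were higher and 22 lower. Under all 3 scalings the same 27 genes passed, 10 higher and 17 lower, and these included all 10 genes named as higher and the 4 macrophage genes. None of the 67 changed sign under any alternative tried. As their sham and naive arrays did not overlap, leaving out 1 array could not have changed a sign.

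**Figure D1:**
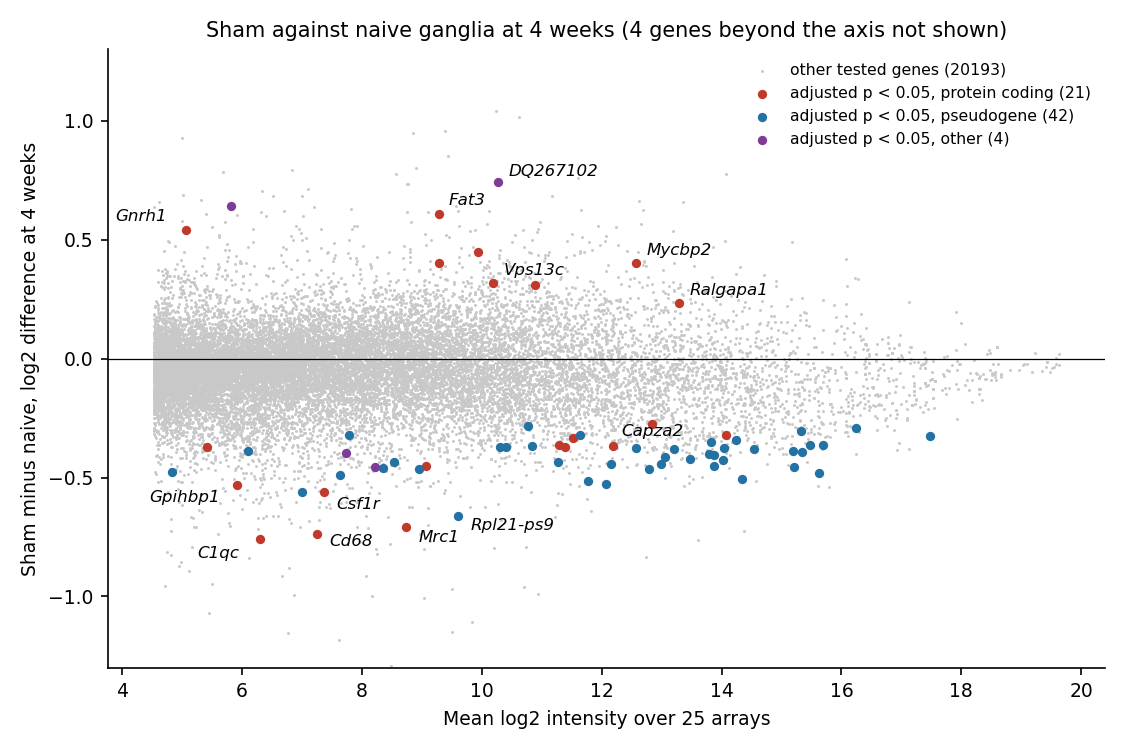
Log2 difference of sham minus naive ganglia at 4 weeks (vertical) against mean log2 intensity over 25 arrays (horizontal), 1 point per gene, with the 67 genes past an adjusted p of 0.05 coloured by class. The blue pseudogenes lie below 0, most of them at high intensity, and the 10 higher genes lie above 0; 4 genes beyond 1.3 to either side are not drawn.

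The macrophage genes are shown first with their upstream sequences, because they are the only called genes that share a cell type list. PU.1, the factor that sets macrophage identity, binds a purine-rich core of letters GAGGAA. The 250 bases before the RefSeq start of 3 of the genes, and of C1qb, the partner chain of C1qc, are given 5′ to 3′ along the gene's strand (GRCm38.p6), with GAGGAA or its reverse complement TTCCTC in capitals.
Cd68, chr11:69666171-69666420, minus strand: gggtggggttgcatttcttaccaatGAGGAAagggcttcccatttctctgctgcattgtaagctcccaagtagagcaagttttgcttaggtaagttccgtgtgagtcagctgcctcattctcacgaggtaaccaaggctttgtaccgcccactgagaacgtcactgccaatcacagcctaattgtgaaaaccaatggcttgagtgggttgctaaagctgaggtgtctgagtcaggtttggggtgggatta
Mrc1, chr2:14229164-14229413, plus strand: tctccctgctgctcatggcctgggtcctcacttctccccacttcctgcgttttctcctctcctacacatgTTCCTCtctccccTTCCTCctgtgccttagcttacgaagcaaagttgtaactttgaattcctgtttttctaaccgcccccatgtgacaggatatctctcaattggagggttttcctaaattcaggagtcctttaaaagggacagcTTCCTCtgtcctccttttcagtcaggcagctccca
C1qc, chr4:136892915-136893164, minus strand: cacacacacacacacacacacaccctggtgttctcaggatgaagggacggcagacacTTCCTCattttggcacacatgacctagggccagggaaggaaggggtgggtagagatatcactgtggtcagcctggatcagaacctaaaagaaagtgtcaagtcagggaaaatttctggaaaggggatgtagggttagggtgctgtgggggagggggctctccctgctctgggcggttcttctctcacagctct
C1qb, chr4:136886201-136886450, minus strand: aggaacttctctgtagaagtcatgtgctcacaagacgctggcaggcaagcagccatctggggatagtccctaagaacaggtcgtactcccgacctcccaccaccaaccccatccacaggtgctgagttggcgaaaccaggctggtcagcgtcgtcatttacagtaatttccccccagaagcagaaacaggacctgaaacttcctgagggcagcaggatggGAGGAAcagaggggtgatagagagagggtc
Cd68 and C1qb held 1 copy of GAGGAA each, Mrc1 held 3 and C1qc 1 copy of TTCCTC. These 4 were shown because they hold the motif. No sequence is shown for Csf1r, the other called macrophage gene, and C1qb was not called. Of the 21 macrophage genes tested, 15 had an upstream sequence in RefSeq and 10 of these held the motif in at least 1 entry, 11 of 18 entries in all. Among all 32851 upstream sequences of that length 23.3% held it. A match describes letters only, and binding was not measured.

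Cd68 encodes a lysosomal glycoprotein of phagocytes. Its log2 intensity was 7.41, 7.73 and 7.54 on the naive arrays and 6.94, 6.72 and 6.82 on the sham arrays. Every sham array lay below every naive array, and Cd68 fell by 0.74 ± 0.13 on the log2 scale (difference ± SE, n = 3 against 3, limma adjusted p = 0.0411), a 1.67-fold lower intensity. Csf1r encodes the receptor for the growth factors CSF1 and IL-34, on which macrophage survival depends. It read 7.53, 7.97 and 7.70 in naive and 7.26, 7.14 and 7.12 in sham ganglia. The groups did not overlap, and Csf1r fell by 0.56 ± 0.11 (limma adjusted p = 0.0411), or 32.3%.

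Mrc1 encodes the mannose receptor CD206, a marker of tissue-resident and border macrophages. Its log2 intensity was 8.96, 9.35 and 9.06 in naive and 8.71, 8.27 and 8.26 in sham ganglia. It fell by 0.71 ± 0.14 (limma adjusted p = 0.0411), and sham 1 was the array closest to the naive group. C1qc encodes the C chain of complement C1q, which tissue macrophages make. It read 6.70, 7.15 and 6.52 in naive and 6.28, 6.04 and 5.79 in sham ganglia and fell by 0.76 ± 0.15 (limma adjusted p = 0.0411), or 40.8%. For all 4 genes naive 2 was the highest of the 6 arrays. Without naive 2 their differences were -0.65, -0.44, -0.60 and -0.58 in the order given, with adjusted p of 0.107 to 0.121, and leaving out any other of the 6 arrays also ended the calls, except that Mrc1 and C1qc passed without sham 1.

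Of the 22 genes of the macrophage list 21 were tested, and all 21 had a lower mean in sham than in naive ganglia, under quantile and cyclic loess scaling too. Of these, 4 passed the adjusted threshold and 17 had an unadjusted p under 0.05, beside the background of 11.2%. The list median was -0.49 against -0.05 over all genes. C1qb, the B chain of C1q, read 8.54, 9.09 and 8.81 in naive and 8.20, 7.46 and 7.76 in sham ganglia. Its difference of -1.0 ± 0.24 was the largest of the list and did not pass (limma adjusted p = 0.0635). Cx3cr1, the fractalkine receptor, differed by -0.60 ± 0.15 (adjusted p = 0.0716) and Lyz2, lysozyme, by -0.62 ± 0.21 (adjusted p = 0.155). In bulk tissue fewer macrophages and less macrophage RNA per cell cannot be told apart.

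The mean log2 intensity of the 21 genes was 7.14 to 7.44 on the naive arrays at 4 weeks and 6.64 to 6.93 on the sham arrays, with no overlap. It was 7.02 to 7.14 in DMM ganglia at 4 weeks, 6.56 to 6.72 in naive and 6.82 to 6.97 in sham ganglia at 16 weeks. On the naive arrays at 8 weeks it was 6.74 to 6.90. The naive arrays at 4 weeks were thus above the naive arrays at 8 and 16 weeks, and the sham arrays at the 2 times overlapped. The sham arrays at 4 weeks also overlapped both later naive groups. Markers of the ganglion sheath moved the same way. The mean over 23 fibroblast and meningeal genes was 7.98 to 8.52 in naive and 7.39 to 8.05 in sham ganglia at 4 weeks, with overlap. All 23 lay above the brightness limit and 23 of 23 had a lower mean in sham ganglia. Of these 1 had an unadjusted p under 0.05, beside 11.2% of all genes, and their part in the macrophage result was not tested.

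**Figure D2:**
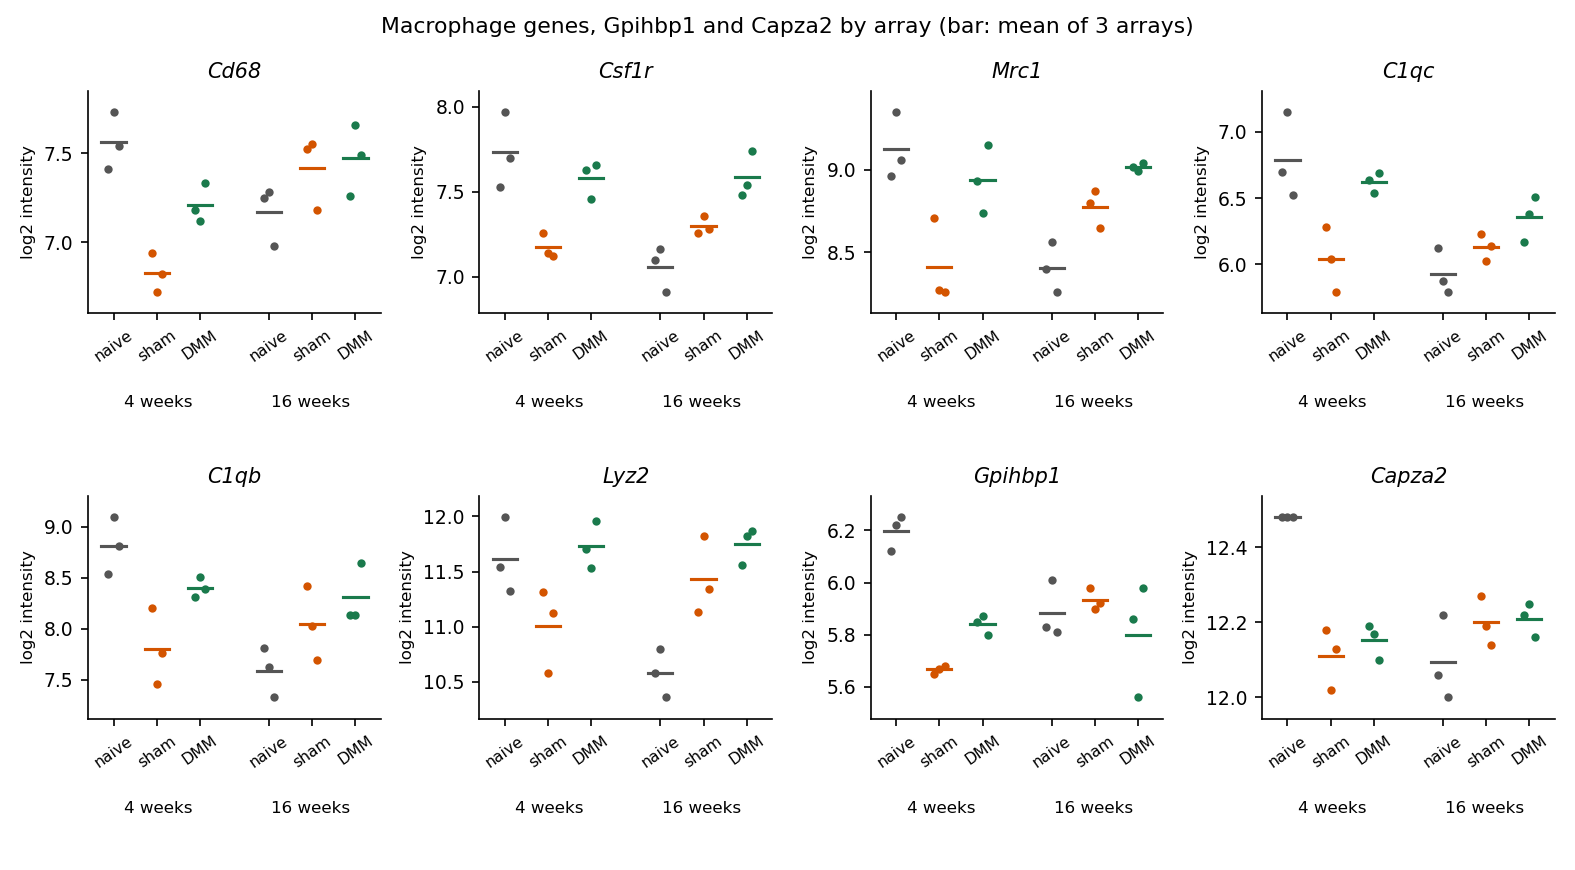
Log2 intensity of 8 genes on each array (points) with the mean of 3 arrays (bars), in naive, sham and DMM ganglia at 4 and 16 weeks. At 4 weeks the sham points of Cd68, Csf1r, Mrc1, C1qc, C1qb, Gpihbp1 and Capza2 lie below all naive points; Lyz2 sham values of 10.58 to 11.31 lie just under the lowest naive value of 11.32.

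No other immune list gave a further called gene. Of 13 complement genes tested 12 were lower and 1 passed (C1qc), with a median of -0.31. An unadjusted p under 0.05 was found for 7, beside 11.2% of all genes. C3ar1, the receptor for the C3a fragment, differed by -0.61 ± 0.19 (limma adjusted p = 0.118) and Cd59a, which blocks the membrane attack complex, by -0.30 ± 0.08 (adjusted p = 0.102). All 7 genes tested of the class II pathway of antigen presentation were lower and 4 had an unadjusted p under 0.05, beside 63.9% and 11.2% of all genes (median -0.42). Ctss, the protease that trims the class II invariant chain, differed by -0.61 ± 0.16 (adjusted p = 0.0800) and H2-Ab1, a class II beta chain, by -0.61 ± 0.22 (adjusted p = 0.181). The C1q chains, Itgam and Ctss are also on the macrophage list, so these counts share members.

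Among 17 chemokines, cytokines and receptors 13 were lower, beside 63.9% of all genes. An unadjusted p under 0.05 was found for 5, all 5 lower, beside 11.2% of all genes. The list mean was 5.81 to 6.08 on the naive and 5.56 to 5.74 on the sham arrays. That is not far above the negative controls (5.06 to 5.21). Ccl12 and Ccl2, both monocyte attractants, differed by -0.74 ± 0.19 (limma adjusted p = 0.0785) and -0.57 ± 0.20 (adjusted p = 0.160), and their receptor Ccr2 by -0.51 ± 0.16 (adjusted p = 0.124). The endosomal nucleic acid receptors Tlr8, Tlr7 and Tlr9 differed by -0.43 ± 0.11, -0.47 ± 0.14 and -0.35 ± 0.11 (adjusted p = 0.0800, 0.111 and 0.115). Tlr4, the endotoxin and alarmin receptor, differed by 0.03 ± 0.13 (adjusted p = 0.922). Of 30 interferon-stimulated genes 28 were lower, but only 3 had an unadjusted p under 0.05, beside 11.2% of all genes (median -0.21). Of 9 neutrophil and marrow precursor genes 0 had an unadjusted p under 0.05 and the median was 0.00.

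Gpihbp1 encodes the capillary protein that carries lipoprotein lipase to the vessel lumen. It read 6.12, 6.22 and 6.25 in naive and 5.65, 5.67 and 5.68 in sham ganglia. These values are not far above the negative controls (5.06 to 5.21). The sham arrays lay within 0.03 of each other, and Gpihbp1 fell by 0.53 ± 0.08 (limma adjusted p = 0.0185), one of the 3 smallest adjusted p of the comparison. It passed without sham 1 and missed the threshold without any other of the 6 arrays (adjusted p of 0.0640 to 0.118). Of the other endothelial genes none passed. Of the 18 endothelial genes tested 16 were lower and 1 had an unadjusted p under 0.05 (Gpihbp1 itself), beside 63.9% and 11.2% of all genes. The list median was -0.10. The endothelial adhesion gene Cdh5 differed by -0.42 ± 0.29 (adjusted p = 0.506).

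A further 8 protein-coding genes fell, of which none is on a list. Capza2, a cap of actin filaments, read 12.48 on each naive array and 12.18, 12.02 and 12.13 on the sham arrays, and fell by 0.37 ± 0.06 (limma adjusted p = 0.0290). Cd63, a tetraspanin of late endosomes that is abundant in phagocytes, fell by 0.37 ± 0.07 (adjusted p = 0.0411). Vps26a, a subunit of the retromer that recycles endosomal cargo, fell by 0.34 ± 0.07 (adjusted p = 0.0411). Ssb, the La protein that binds new RNA polymerase III transcripts, read 13.03, 13.01 and 13.02 in naive and 12.76, 12.73 and 12.73 in sham ganglia and fell by 0.27 ± 0.05 (adjusted p = 0.0411). Nop58, a core protein of box C/D small nucleolar particles, fell by 0.37 ± 0.07 and Ciao2a, of cytosolic iron-sulphur assembly, by 0.45 ± 0.09 (adjusted p = 0.0455 for both). Mff, the mitochondrial fission factor, fell by 0.32 ± 0.07 (adjusted p = 0.0455). Foxi1, a forkhead factor, fell by 0.37 ± 0.08 (adjusted p = 0.0479), from 5.57 to 5.85 in naive to 5.30 to 5.33 in sham ganglia, near the level of the negative controls. Of these 8, Capza2 and Ciao2a also passed under both other scalings. Naive means at 8 and 16 weeks were 12.09 and 12.09 for Capza2, 11.24 and 11.18 for Cd63 and 11.06 and 11.19 for Nop58. The sham means at 4 weeks were close to these, at 12.11, 11.36 and 11.23. For Vps26a and Ciao2a the sham means at 4 weeks, 11.37 and 8.90, were also close to the naive means at 8 weeks, 11.38 and 8.92. Their naive means at 16 weeks were 11.52 and 9.04. For Mff and Foxi1 the sham mean at 4 weeks lay below both later naive means, and for Ssb between them.

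Pseudogenes made up the larger part of the lower genes. By RefSeq class, 42 of the 57 lower genes were pseudogenes (73.7%), against 14.8% of all genes tested and 0 of the 10 higher genes. The list was led by Rpl21-ps9, a copy of the ribosomal protein L21 gene, which read 10.02, 9.99 and 9.88 in naive and 9.12, 9.40 and 9.38 in sham ganglia. It fell by 0.66 ± 0.10 (limma adjusted p = 0.0185). Of the 42, 9 were named for ribosomal proteins. Those were Rpl21-ps9, Rpl21-ps6, Rpl21-ps15, Rpl21-ps4, Rpl39-ps, Rpl31-ps22, Rpl9-ps7, Rpl34-ps2 and Rpl19-ps4, and they fell by 0.29 to 0.66. A further 3 were Smt3h2-ps and Smt3h2-ps2, named as copies of a SUMO gene, and Eif3s6-ps2, named as a copy of a translation initiation factor subunit, which fell by 0.41 to 0.44.

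The remaining 30 carried Gm numbers, with no parent gene in the name, and fell by 0.28 to 0.56. They were Gm12599, Gm12335, Gm12906, Gm5278, Gm10086, Gm8623, Gm10154, Gm14541, Gm4705, Gm13545, Gm7117, Gm11942, Gm11533, Gm6067, Gm14633, Gm12341, Gm15607, Gm6750, Gm10268, Gm6851, Gm14859, Gm15593, Gm14238, Gm14813, Gm9836, Gm8444, Gm8580, Gm12176, Gm4462 and Gm17786. Gm12599 read 8.81, 8.56 and 8.61 in naive and 8.24, 8.20 and 8.15 in sham ganglia (limma adjusted p = 0.0185). Gm14633 stood at 17.56 to 17.72 in naive and 17.27 to 17.35 in sham ganglia. Gm6067 stood at 5.05 to 5.20 and 4.51 to 4.79, within or below the negative controls. The 2 other lower genes without a protein were Gm11603, which has no entry in the RefSeq table used, and Gm23343, a small nucleolar RNA. A probe of a processed pseudogene can bind the transcript of the parent gene, so which gene these values measure is uncertain.

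Over all 3002 pseudogenes tested the median difference was -0.16, against -0.03 over 13868 protein-coding genes. Of the pseudogenes 2474 were lower, 856 of them at an unadjusted p under 0.05, and 528 were higher. After quantile normalization and after cyclic loess the median was -0.10 for pseudogenes and 0.00 for all genes, and that of protein-coding genes turned to 0.015 and 0.010, with 73.5% of pseudogenes lower after quantile normalization. Of 187 genes named as ribosomal protein pseudogenes, a list drawn up after the values were seen, 176 were lower and 108 had an unadjusted p under 0.05 (median -0.25), beside 63.9% and 11.2% of all genes. Their mean was 10.81 to 10.92 on the naive and 10.57 to 10.65 on the sham arrays at 4 weeks, but 10.61 to 10.66 on the naive and 10.82 to 10.88 on the sham arrays at 16 weeks. The order of the groups was therefore opposite at the 2 times, with no overlap at either.

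The ribosomal protein genes themselves stood beside their copies. Of 25 on the list 11 could be tested, the rest having no probe set that carries their symbol alone. All 11 were lower in sham ganglia and 7 had an unadjusted p under 0.05, beside 63.9% and 11.2% of all genes. None passed the adjusted threshold (median -0.18). Rps24, of the small subunit, differed by -0.26 ± 0.06, Rpl27, of the large subunit, by -0.30 ± 0.07 and Rplp0, of the ribosomal stalk, by -0.25 ± 0.07 (limma adjusted p = 0.0658, 0.0715 and 0.0800). Of 23 oxidative phosphorylation genes 19 were lower, with 1 at an unadjusted p under 0.05 in each direction (median -0.10).

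The 10 genes that rose were 8 protein-coding genes and 2 RNA genes. Mycbp2, a very large ubiquitin ligase that restrains axon growth, read 12.33, 12.25 and 12.33 in naive and 12.67, 12.80 and 12.65 in sham ganglia. The groups were well apart, and it rose by 0.40 ± 0.07 (limma adjusted p = 0.0411), or 1.32-fold. Naive means of Mycbp2 were 12.30, 12.64 and 12.54 at 4, 8 and 16 weeks, and its sham mean at 4 weeks was 12.71. The naive group at 4 weeks was thus low beside the later naive groups. For Ago3 the naive means were alike, at 9.80, 9.87 and 9.81. Vps13c, a lipid transfer protein at organelle contacts, rose by 0.32 ± 0.06 and Heatr5b, of endosome traffic, by 0.31 ± 0.06 (adjusted p = 0.0411 for both). Their sham means at 4 weeks, 10.33 and 11.05, lay above their later naive means. Those were 10.20 and 10.15 for Vps13c and 10.90 and 10.92 for Heatr5b at 8 and 16 weeks. Ago3, an Argonaute that loads microRNAs, rose by 0.45 ± 0.09 (adjusted p = 0.0412), from 9.75 to 9.85 in naive to 10.16 to 10.29 in sham ganglia.

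Fat3, a giant atypical cadherin of neurons, read 8.87, 8.86 and 8.81 in naive and 9.45, 9.64 and 9.29 in sham ganglia and rose by 0.61 ± 0.13 (limma adjusted p = 0.0479), or 1.53-fold. Naive means of Fat3 at 8 and 16 weeks were 9.44 and 9.30, beside a sham mean of 9.46 at 4 weeks. Ralgapa1, a subunit of the GTPase-activating complex for Ral, rose by 0.23 ± 0.05 (adjusted p = 0.0481). Its sham mean of 13.43 at 4 weeks lay above its naive means at 8 and 16 weeks, 13.26 and 13.22. DQ267102, a small nucleolar RNA, rose by 0.74 ± 0.14 (adjusted p = 0.0411), or 1.67-fold. Its naive means were 9.72, 10.21 and 10.28 at 4, 8 and 16 weeks, and its sham mean at 4 weeks was 10.46. The non-coding 1700086D15Rik rose by 0.64 ± 0.13 (adjusted p = 0.0455), from 5.03 to 5.45 in naive ganglia, near the negative controls. Its naive means at 8 and 16 weeks, 5.74 and 5.92, were close to its sham mean of 5.89 at 4 weeks. Olfr1055, an olfactory receptor gene, rose by 0.40 ± 0.08 (adjusted p = 0.0411). Naive means of Olfr1055 were 8.95, 9.40 and 9.26 at 4, 8 and 16 weeks, and its sham mean at 4 weeks was 9.36. Gnrh1, the gonadotropin-releasing hormone gene, rose by 0.54 ± 0.11 (adjusted p = 0.0458), but only from 4.49 to 4.73 in naive to 5.10 to 5.28 in sham ganglia, from below the negative controls to their level. Naive means of Gnrh1 at 8 and 16 weeks, 5.14 and 5.06, were close to its sham mean of 5.17 at 4 weeks. Just outside the threshold lay Kmt2c, a histone H3K4 methyltransferase (0.37 ± 0.08, adjusted p = 0.0513), and Fry, a large regulator of cell shape (0.52 ± 0.11, adjusted p = 0.0529).

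Many of the genes that rose are long. The 8 protein-coding ones had a median genomic span of 131 kb in RefSeq (GRCm38.p6), against 24 kb over all 13868 protein-coding genes tested and 16.6 kb over the 13 that fell. Fat3 spans 592 kb, Mycbp2 233 kb, Ralgapa1 219 kb and Vps13c 157 kb, while Gnrh1 spans 4.26 kb and Olfr1055 1.04 kb. With the protein-coding genes cut into sixths by span, the median difference was -0.07, -0.06, -0.05, -0.04, -0.01 and 0.04 from the shortest to the longest. In the longest sixth 385 genes had an unadjusted p under 0.05 and a higher mean in sham ganglia and 65 a lower mean, and in the shortest sixth 25 and 290. After quantile normalization the medians ran from -0.02 to 0.09, and those of the sixths of 24 to 89.0 kb turned above 0, so the order by span held while the sign of these did not. In sham against naive ganglia at 16 weeks the medians ran the other way, from 0.03 to -0.02.

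**Figure D3:**
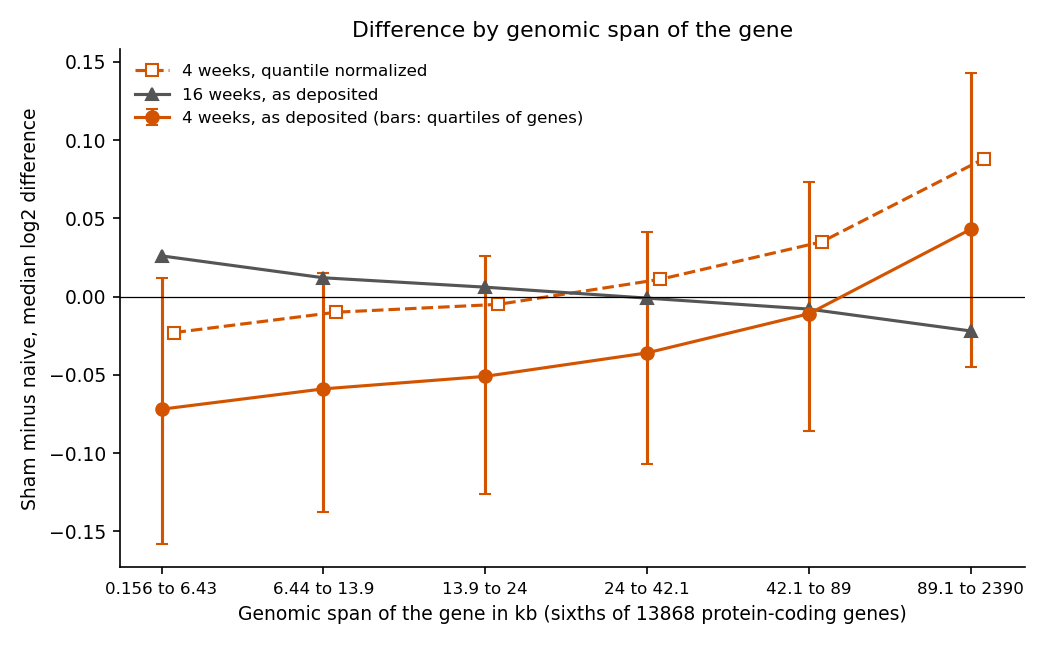
Median log2 difference of sham minus naive ganglia (vertical) for sixths of 13868 protein-coding genes by genomic span in kb (horizontal), at 4 weeks as deposited with bars to the quartiles of genes, at 4 weeks after quantile normalization, and at 16 weeks. The 4-week medians rise from -0.07 in the shortest to 0.04 in the longest sixth, and the 16-week medians fall from 0.03 to -0.02.

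Ion channel genes of sensory neurons had the highest median of the 37 lists. Of 29 tested 23 had a higher mean in sham ganglia, 7 had an unadjusted p under 0.05, all 7 higher, beside the background of 4.70%, and none passed the adjusted threshold (median 0.20). Asic3, the acid-sensing channel of muscle and joint afferents, read 11.53, 11.66 and 11.59 in naive and 12.12, 12.17 and 12.03 in sham ganglia. Naive means of Asic3 at 8 and 16 weeks were 12.15 and 12.26, beside a sham mean of 12.11 at 4 weeks. At 4 weeks the groups were far apart for their spread, at 0.52 ± 0.11, yet Asic3 missed the threshold (limma adjusted p = 0.0529). It passed under quantile and cyclic loess scaling (adjusted p = 0.0410 and 0.0368) and missed it without any 1 array (0.10 to 0.178). Asic3 spans only 4.39 kb, and whether the other channel genes follow the order by span was not tested.

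Kcna2, a potassium channel that limits firing, read 12.94 ± 0.08 in naive and 13.34 ± 0.06 in sham ganglia (SD, n = 3 each), without overlap (0.40 ± 0.11, limma adjusted p = 0.0854). Piezo2, the channel of light touch and proprioception, differed by 0.35 ± 0.11 (adjusted p = 0.120) and Kcnq3, of the M-current, by 0.39 ± 0.13 (adjusted p = 0.140). Scn9a, the sodium channel Nav1.7, differed by 0.20 ± 0.09 (adjusted p = 0.270). Trpv1, the capsaicin and heat receptor, differed by 0.00 ± 0.26 (adjusted p = 0.996). The 19 general sensory neuron markers had a median of 0.03, with 11 higher and 8 lower. Ntrk3, the neurotrophin-3 receptor of proprioceptors, had the smallest p among pain peptides and receptors (0.66 ± 0.19, adjusted p = 0.101), and Oprm1, the mu opioid receptor, differed by 0.25 ± 0.11 (adjusted p = 0.276).

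**Figure D4:**
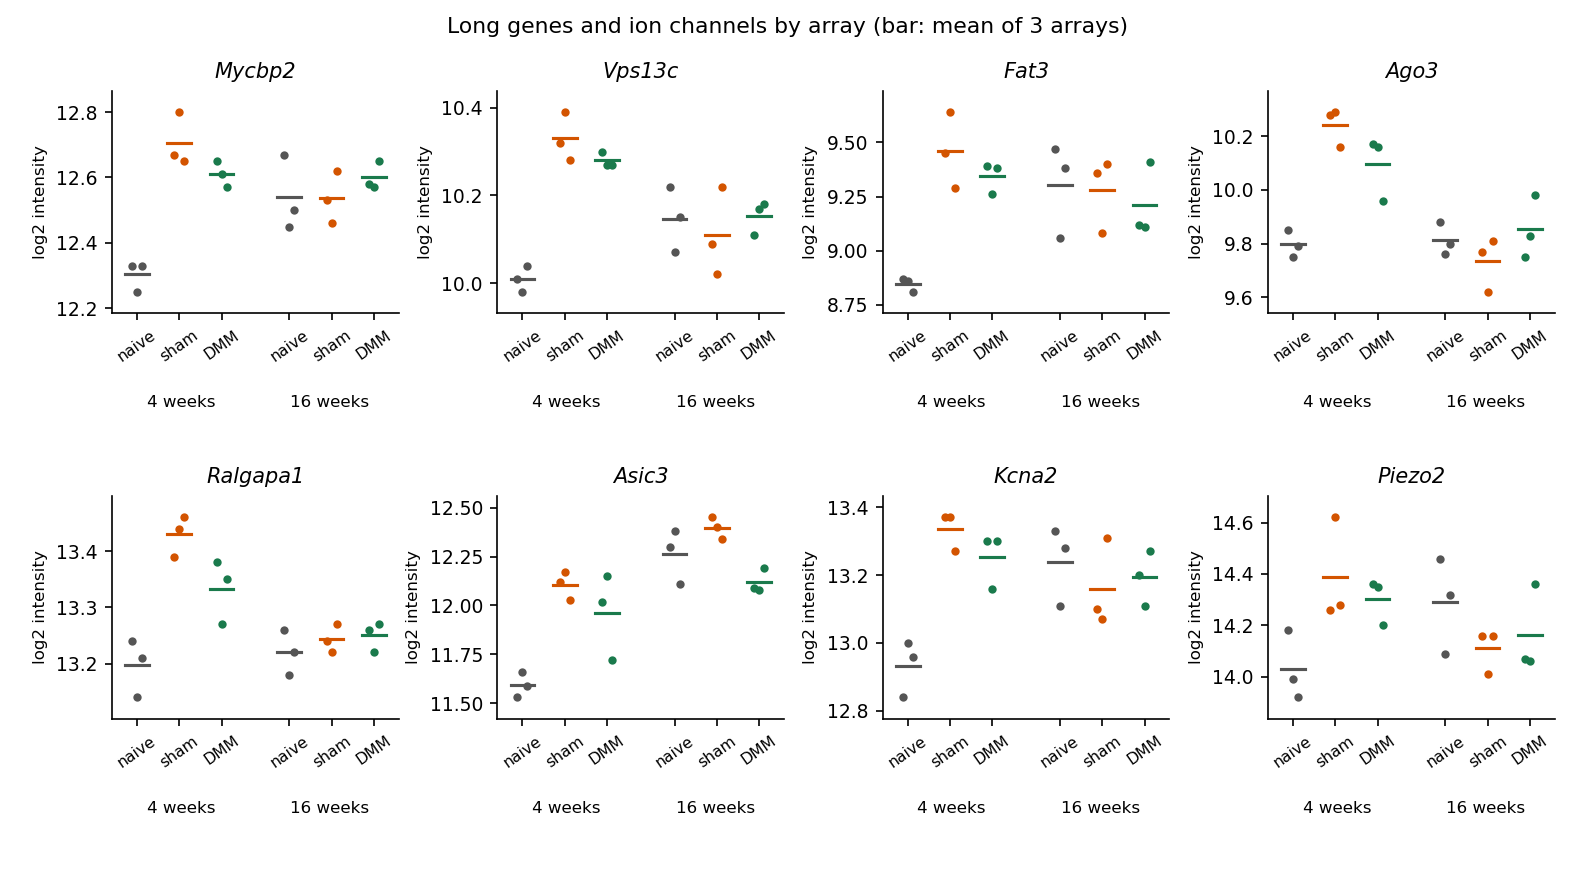
Log2 intensity of 8 genes on each array (points) with the mean of 3 arrays (bars), in naive, sham and DMM ganglia at 4 and 16 weeks. At 4 weeks the sham points lie above all naive points in each panel, and the naive values of Fat3 (8.81 to 8.87) and Asic3 (11.53 to 11.66) at 4 weeks also lie below all their naive values at 16 weeks (9.06 to 9.47 and 12.11 to 12.38).

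The nerve injury genes had the lowest median of all lists, -0.55 over 20 genes, with wide spread between arrays. Of the 20, 18 were lower, beside 63.9% of all genes. An unadjusted p under 0.05 was found for 8 with a lower mean and 1 with a higher mean, beside 11.2% and 4.70% of all genes, and none passed the adjusted threshold. Sprr1a, a small proline-rich protein induced in injured neurons, read 13.04, 13.11 and 13.02 on the naive arrays and 11.78, 8.19 and 10.07 on the sham arrays. The naive arrays were alike and high, the sham arrays lower and far apart, and the difference of -3.05 ± 1.54 did not pass (limma adjusted p = 0.341). On the naive arrays at 16 weeks Sprr1a read 5.32, 6.36 and 6.03, and on the DMM arrays at 4 weeks 8.86, 12.88 and 8.09.

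Atf3, the transcription factor that marks axotomized neurons, read 9.20, 8.69 and 9.60 in naive and 8.51, 7.58 and 7.86 in sham ganglia (-1.18 ± 0.48, limma adjusted p = 0.232). Anxa1, annexin A1, differed by -0.92 ± 0.29 (adjusted p = 0.126), Ecel1, a neuronal endopeptidase, by -1.07 ± 0.35 (adjusted p = 0.136) and Stmn4, a microtubule regulator, by -0.54 ± 0.16 (adjusted p = 0.111). The mean over the 20 genes was 9.64 to 9.84 on the naive and 8.82 to 9.50 on the sham arrays at 4 weeks, against 8.17 to 8.29 on the naive and 8.17 to 8.36 on the sham arrays at 16 weeks. Both groups at 4 weeks thus lay above both at 16 weeks, the untreated group furthest. On the naive arrays at 8 weeks the mean over these genes was 8.19 to 8.93. That range lay below the naive arrays at 4 weeks and overlapped the sham arrays at 4 weeks. The naive group labels name no injury.

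Sheath and matrix genes varied widely between arrays of a group. All 23 fibroblast and meningeal genes were lower in sham ganglia, with a median of -0.46. Only 1 had an unadjusted p under 0.05, beside 11.2% of all genes. It was Lum, the collagen-binding proteoglycan lumican (-0.66 ± 0.29, limma adjusted p = 0.265). Of 35 extracellular matrix genes 32 were lower, beside 63.9% of all genes (median -0.26). An unadjusted p under 0.05 was found for 3 of the 35, a share not above the 11.2% of all genes. Among them were Mmp2, a gelatinase (-0.77 ± 0.32), and Postn, periostin (-0.41 ± 0.18, adjusted p = 0.247 and 0.258). Ptgds, the prostaglandin D synthase of the meninges, ranged from 10.08 to 14.40 on the naive and from 8.92 to 13.88 on the sham arrays. The 12 satellite glia genes had a median of -0.01 and the 13 myelinating Schwann cell genes of -0.13, with 0 of the 13 at an unadjusted p under 0.05.

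**Figure D5:**
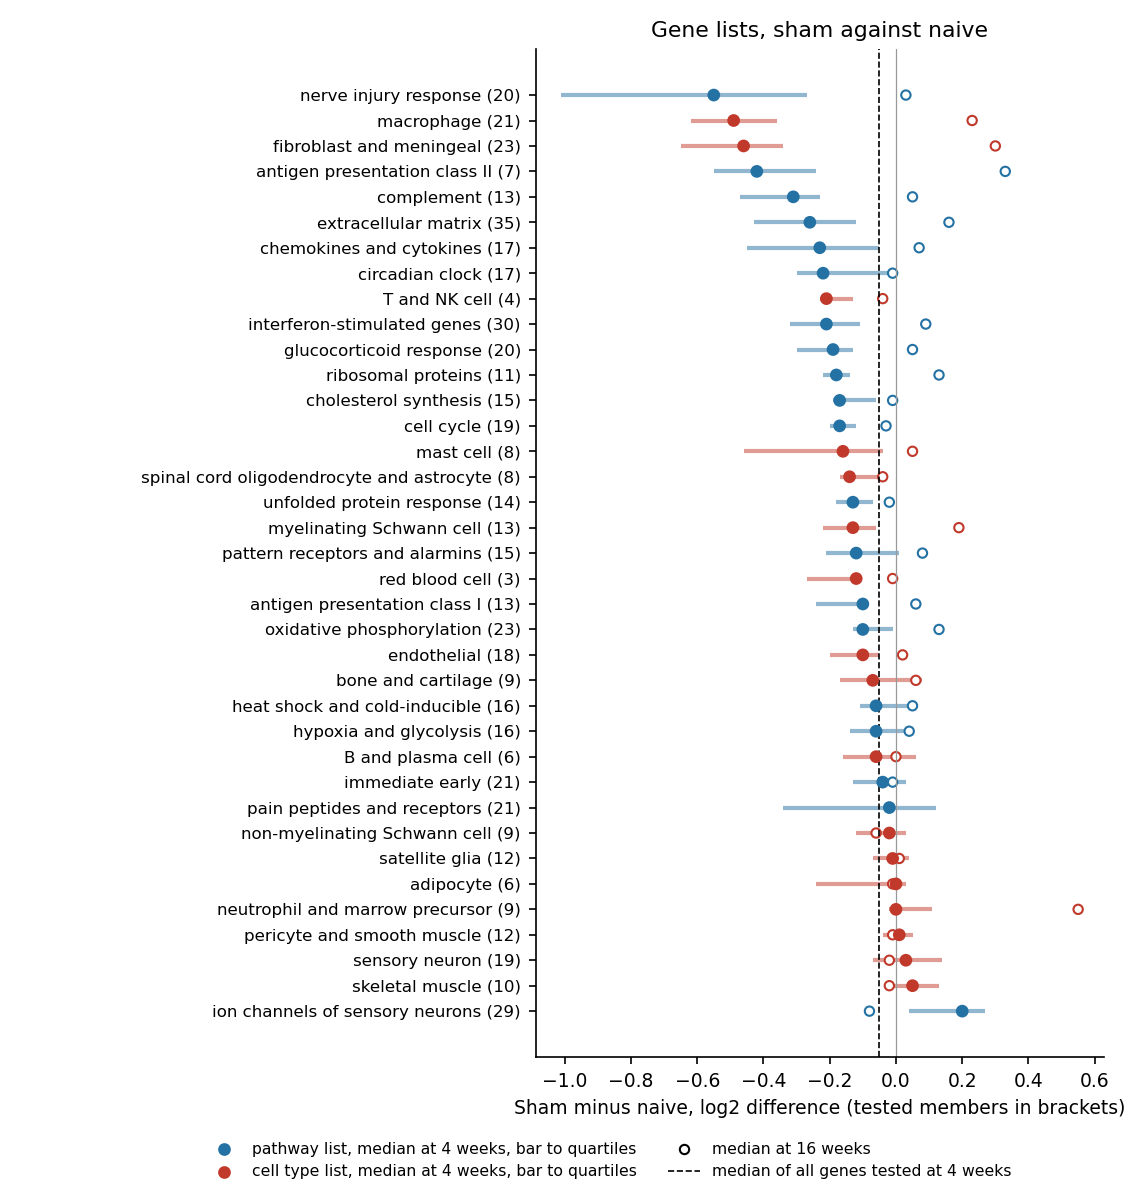
Median log2 difference of sham minus naive ganglia (horizontal) for 37 gene lists, with bars to the quartiles at 4 weeks (filled points) and the median at 16 weeks (open points); tested members are in brackets and the dashed line marks the median of all genes at 4 weeks, -0.05. Nerve injury (-0.55), macrophage (-0.49) and fibroblast and meningeal genes (-0.46) lie furthest below it, and ion channels (0.20) furthest above.

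No gene of the clock or of the stress hormone response passed. Of 17 clock genes 13 were lower, beside 63.9% of all genes, with 3 lower and 1 higher at an unadjusted p under 0.05. Dbp, a clock output factor, read 9.38, 9.88 and 9.38 in naive and 8.64, 8.87 and 9.25 in sham ganglia, and Arntl, the clock activator BMAL1, differed by 0.22 ± 0.12 (limma adjusted p = 0.384). Time of day at tissue collection is not in the labels. All 20 glucocorticoid response genes were lower as deposited, 6 of them at an unadjusted p under 0.05 (median -0.19), beside 63.9% and 11.2% of all genes. They were led by Fam107a (-0.34 ± 0.12, adjusted p = 0.165), Sgk1, a kinase induced by the hormone (-0.22 ± 0.09, adjusted p = 0.247) and Cdkn1a, the cell cycle inhibitor p21 (-0.45 ± 0.19, adjusted p = 0.247). Of 19 cell cycle genes 18 were lower and 9 had an unadjusted p under 0.05 (median -0.17), beside 63.9% and 11.2% of all genes. Ccnb2, cyclin B2, differed by -0.26 ± 0.08 and Top2a, DNA topoisomerase II alpha, by -0.34 ± 0.11 (adjusted p = 0.120 and 0.138). The cell cycle list mean was 5.89 to 6.07 on the naive and 5.70 to 5.88 on the sham arrays. That is not far above the negative controls (5.06 to 5.21). The immediate early genes were close to the median of all genes, at -0.04 over 21 genes, and Fos and Egr1, its best known members, differed by -0.04 ± 0.34 and 0.07 ± 0.22 (adjusted p = 0.964 and 0.902).

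Sham and naive ganglia taken 16 weeks after surgery gave different values. None of the 67 genes passed in sham against naive ganglia at 16 weeks, and 60 of them had the opposite sign there. The difference between the effects at the 2 times was tested directly, and 424 genes passed, 387 with a lower effect at 4 weeks (1.91% of the genes tested) and 37 with a higher one (0.183%). Of the 67 genes 57 passed this test, 40 of the 42 pseudogenes and 14 of the 21 protein-coding genes; the 67 had been chosen on the 4-week arrays, which this test uses too. Of the 387, 252 were pseudogenes (65.1%) and 94 protein-coding genes, and of the 37, 35 were protein-coding with a median span of 91.4 kb. After quantile normalization the direction was 308 higher and 99 lower, and after cyclic loess 241 higher and 124 lower. Leaving out 1 array at a time gave 122 (without naive 1 at 16 weeks) to 439 genes, and 156 to 242 without naive 1, naive 3 or sham 2 at 4 weeks or without any 1 sham array at 16 weeks.

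Among the macrophage genes 10 of 21 passed this test of change, all lower at 4 weeks. Mrc1 differed by -0.71 at 4 weeks and by 0.37 at 16 weeks, a change of -1.08 ± 0.20 (limma adjusted p = 0.0111). Csf1r changed by -0.81 ± 0.15 (adjusted p = 0.0117), Cd68 by -0.99 ± 0.19 (adjusted p = 0.0140) and C1qc by -0.96 ± 0.21 (adjusted p = 0.0218). Lyz2, not called at 4 weeks, differed by 0.85 ± 0.21 at 16 weeks, a change of -1.46 ± 0.30 (adjusted p = 0.0179). Naive levels were lower and sham levels higher at 16 weeks than at 4 in Csf1r and Cd68, differences between times that were not tested within a group. Csf1r stood at 7.53 to 7.97 in naive and 7.12 to 7.26 in sham ganglia at 4 weeks, and at 6.91 to 7.16 and 7.26 to 7.36 at 16 weeks. Cd68 stood at 7.41 to 7.73 in naive and 6.72 to 6.94 in sham ganglia at 4 weeks, and at 6.98 to 7.28 and 7.18 to 7.55 at 16 weeks. Ssb, Capza2 and Gpihbp1 changed by -0.51 ± 0.08, -0.48 ± 0.09 and -0.58 ± 0.12 (adjusted p = 0.00752, 0.0111 and 0.0158). Naive and sham mice were both older at 16 than at 4 weeks, and age and time of collection cannot be told apart. In sham mice age also cannot be told apart from time since surgery.

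DMM ganglia at 4 weeks are given beside these values, and the comparison with naive ganglia uses the same 3 naive arrays. Cd68 differed by -0.36 ± 0.13 in DMM against naive ganglia, Csf1r by -0.15 ± 0.11, Mrc1 by -0.19 ± 0.14 and C1qc by -0.17 ± 0.15 (limma adjusted p = 0.467 to 0.792). The values in sham ganglia were -0.74, -0.56, -0.71 and -0.76. Tested directly, DMM stood above sham by 0.38 ± 0.13, 0.41 ± 0.11, 0.52 ± 0.14 and 0.59 ± 0.15 in the same order, without passing (adjusted p = 0.831 to 0.986). Gpihbp1 differed by -0.36 ± 0.08 (adjusted p = 0.250), Mycbp2 by 0.30 ± 0.07 (adjusted p = 0.309) and Vps13c by 0.27 ± 0.06 (adjusted p = 0.231). Arntl, at 0.22 ± 0.12 in sham, differed by 0.94 ± 0.12 in DMM against naive ganglia (adjusted p = 0.00304).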

How the data were processed

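Expression was measured by microarray in 25 samples of 9 groups, set by treatment and time in the labels. The authors deposited log2 intensities, 1 per probe set; the log scale was read from the values, while how the authors normalized and summarized the probes is not given in the sources used here. Labelling followed the manufacturer's standard protocol, per the labels. Of 65956 transcript probe sets 30604 carried 1 gene symbol in the platform's annotation (827 updated by Entrez identifier); 2146 with several and 33206 with none were left out. The brightest probe set stood for each of 355 genes with several, giving 30142 genes, and 20260 with a mean above the 40th percentile of transcript probe sets (4.52) were tested. RefSeq (GRCm38.p6) gave class and span for 20091 of them.

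Groups were compared with limma 3.58.1 under R 4.3.3, with a mean for each of the 9 groups, all 25 arrays entering (16 residual and 3.28 prior degrees of freedom), two-sided, adjusted by Benjamini-Hochberg over all 20260 genes, threshold 0.05. The median SE of a difference was 0.097, and precision is limited by how many arrays there are. The fit was tested on simulated data. Alternatives were filters, scaling, fewer arrays, priors, array weights, probe set means, a replicate block and leaving out each array. Named genes were up to 12 higher and 12 lower of smallest p without overlap, not predicted; all past the threshold; up to 4 of smallest p per list; and 14 defining genes. The 37 lists (729 entries) and the comparison were chosen with earlier results of these data known.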

Additional observations from a re-analysis of the deposited data

Results flagged for a closer look

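For 17 of the 24 genes named by the rule of smallest p, the sham effect at 4 weeks differed from that at 16 weeks by the test of that difference in limma (adjusted p under 0.05 over all genes). A value below 0 means that sham minus naive was lower at 4 weeks. Among macrophage genes the difference of effects was -1.08 for Mrc1, -0.99 for Cd68, -0.96 for C1qc and -0.81 for Csf1r. It was -0.58 for Gpihbp1, -0.51 for Ssb, -0.49 for Cd63, -0.48 for Capza2, -0.43 for Vps26a and -0.40 for Mff. Among higher genes it was 0.84 for DQ267102, 0.64 for Fry, 0.52 for Ago3, 0.45 for Kmt2c, 0.40 for Mycbp2 and 0.36 for both Vps13c and Heatr5b. The genes were picked on the 4-week arrays, which enter this test.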

How the results depend on the processing

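With no filter 3 genes passed (0 higher, 3 lower) and with the 60th percentile filter 163 (37 and 126). With array weights 628 passed (189 and 439), with only the 6 arrays compared or the 9 arrays of 4 weeks 0 (unadjusted p under 0.05: 3478 and 3542), and with a replicate block 9 (0 and 9, 6 of them among the 67). The block is not supported by a pairing, since equal numbers of sham and naive arrays had correlations of deviations of -0.091 to 0.085. Quantile normalization gave 64 higher and 20 lower, cyclic loess 75 and 22. Leaving out 1 array gave 0 to 11 genes, 0 to 1 higher and 0 to 11 lower. The intensity trend, robust prior, probe set means and a filter limit over all probe sets, added after seeing the data, gave 63 to 89. The change between times gave 284 genes (20 higher, 264 lower) with no filter, 576 (68 and 508) with only its 12 arrays, 351 (35 and 316) with the replicate block, 308 higher and 99 lower after quantile normalization, 241 and 124 after cyclic loess, and 122 to 439 genes without 1 array (2 to 56 higher, 120 to 410 lower). These values changed sign: Fos (0.02 quantile, 0.01 cyclic loess, -0.15 to 0.05 without 1 array), Trpv1 (0.05, 0.06, 0.06 with array weights, -0.24 to 0.18), Tlr4 (-0.05 to 0.10 without 1 array), the hypoxia and glycolysis median (0.05 and 0.04), the bone and cartilage median (-0.15 to 0.01) and the median of all protein-coding genes (0.015 and 0.010 after quantile and cyclic loess). The cause was not tested. Of 1742 values of single genes and lists under an alternative, 951 kept direction and side of the threshold (for medians, moved less than the spread), 729 kept direction and lost it, 16 kept direction and gained it, 32 list medians moved by more than the spread and 14 changed sign. The median SE of 0.097 limits what 3 arrays against 3 can show, and genes near the negative controls are the least sure.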

Other observations

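Genes of other cell types and pathways gave few values apart from the background. Car3, a carbonic anhydrase abundant in fat and muscle, differed by -1.44 ± 0.40 in sham against naive ganglia at 4 weeks (limma adjusted p = 0.0952), while the median over 6 adipocyte genes was 0.00. Of 10 skeletal muscle genes 7 were higher with a median of 0.05, and Mb, myoglobin, differed by -0.24 ± 0.10 (adjusted p = 0.223). The mast cell genes Tpsb2 and Cpa3, a tryptase and a carboxypeptidase, differed by -0.66 ± 0.42 and -0.74 ± 0.65 (adjusted p = 0.465 and 0.614). Bag3, a co-chaperone of the heat shock response, had a higher mean by 0.49 ± 0.17, and Rbm3, a cold-inducible RNA-binding protein, a lower one by -0.34 ± 0.13 (adjusted p = 0.160 and 0.195).

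Of 15 cholesterol synthesis genes 11 were lower, beside 63.9% of all genes tested, and 4 had an unadjusted p under 0.05 and a lower mean, beside 11.2% of all genes (median -0.17). Among them were Hmgcs1, the HMG-CoA synthase (-0.18 ± 0.06, limma adjusted p = 0.155), and Sc5d, a late enzyme of the pathway (-0.15 ± 0.06, adjusted p = 0.240). Apod, a lipid carrier of Schwann cells and fibroblasts, differed by -0.38 ± 0.14 at 4 weeks and by 0.41 at 16 weeks, and its change between the times passed (adjusted p = 0.0482). Over 9 neutrophil and marrow precursor genes the median of sham against naive was 0.00 at 4 weeks and 0.55 at 16 weeks. At 16 weeks the list mean was 5.03, 6.80 and 6.11 on the sham arrays and 5.19 to 5.36 on the naive arrays. Thus 1 sham array lay below all naive arrays. The negative controls stood at 5.06 to 5.35 over all arrays.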
